A study of Rattus norvegicus with 12 samples.

Results

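The genes described here encode 10 amino acid transporter proteins of the SLC38, SLC7 and SLC3 families, measured in the prefrontal cortex (PFC) of rats. They are Slc38a1, Slc38a2 and Slc38a4 of system A, Slc38a3 and Slc38a5 of system N, the lysosomal Slc38a9, Slc7a5 of system L, Slc7a1 of system y+, Slc7a11 of system xc- and Slc3a2, the heavy chain shared by several SLC7 carriers. A probe set counted as a member when its only gene symbol was one of these, and each gene was to be represented by the probe set selected on the highest mean over the 12 arrays. Each gene had exactly 1 such probe set, so that measured level decided nothing, but the 10 genes themselves were listed with earlier results of these data known. All 10 lay above a mean log2 value of 4 and entered the test, among 16085 probe sets of 14847 genes. Stressed rats went through 40 min of inescapable footshock (FS) at 0.8 mA, with 20 min of actual shock and intervals of 2 to 8 s, and were killed 2 h after the session began. Controls received no shock and were left in the home cage. Both groups were adult male Sprague-Dawley rats, 6 per group, with 1 whole-transcript array per rat. The whole PFC was taken without separating its subregions or cell types, so fewer cells of a type and less RNA per cell cannot be told apart.

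These proteins move amino acids across the membranes of neurons, glia and vessel walls. System A and system N carriers couple neutral amino acids, glutamine above all, to sodium. In the brain, astrocytes release glutamine largely through system N and neurons can take it up through system A, for use in making glutamate and GABA. System L exchanges large neutral amino acids such as leucine at the blood-brain barrier, system y+ carries arginine and lysine, and system xc- brings in cystine for glutathione in exchange for glutamate.

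Sequences upstream of the annotated starts were taken from RefSeq (GRCr8), which held a window for 9 of the 10 genes, each from 250 bases before to 50 bases after a start. Slc38a3 was not matched, and Slc3a2 had windows for more than 1 start. The window of Slc38a5 is shown because this gene had the widest difference between the groups, and that of Slc38a2 because it is a family member of overlapping substrates without such a difference. Capitals mark CG dinucleotides. Slc38a5 lay at chrX:16894421-16894720 on the minus strand and Slc38a2 at chr7:129742570-129742869 on the minus strand.
Slc38a5: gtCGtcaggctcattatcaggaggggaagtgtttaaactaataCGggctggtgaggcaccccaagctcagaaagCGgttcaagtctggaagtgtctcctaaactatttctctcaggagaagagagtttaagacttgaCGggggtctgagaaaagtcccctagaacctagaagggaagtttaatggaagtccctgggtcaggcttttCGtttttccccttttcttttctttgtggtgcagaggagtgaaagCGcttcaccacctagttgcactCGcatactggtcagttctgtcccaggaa
Slc38a2: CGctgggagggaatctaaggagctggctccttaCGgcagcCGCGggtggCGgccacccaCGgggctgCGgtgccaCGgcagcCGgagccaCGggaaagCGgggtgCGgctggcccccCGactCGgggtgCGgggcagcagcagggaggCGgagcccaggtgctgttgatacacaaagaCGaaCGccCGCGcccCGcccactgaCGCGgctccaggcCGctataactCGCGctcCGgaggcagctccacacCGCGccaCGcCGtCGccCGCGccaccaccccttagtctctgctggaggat
The Slc38a5 window held 7 CG dinucleotides with a GC content of 48.3%, near the medians of all such windows, which were 7 and 51.7%. The Slc38a2 window held 34 at 72.3% GC. Slc38a1, Slc38a2 and Slc38a4 follow one another as neighbouring protein-coding genes on chromosome 7, and the other windows of this row held 24 CG dinucleotides for Slc38a1 and 6 for Slc38a4.

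The letters TGATGNAA, a core of the element through which ATF4 acts on genes of amino acid shortage, were searched on both strands. They occurred in 3.98% of all 33469 windows and in those of Slc38a1 and Slc7a1, which are shown here with the match in capitals. The Slc38a1 stretch lay at chr7:129681525-129681554 on the minus strand, and the Slc7a1 stretch at chr12:11664447-11664476 on the plus strand.
Slc38a1: gggggaaactcTGATGCAAccaaccagtcc
Slc7a1: cggcgcgcggcTGATGAAAccggctcggat
AGAACA, letters of the element bound by the glucocorticoid receptor, occurred in 20.7% of all windows and, among the transporter genes, only in that of Slc38a4. CCAAT was found in the windows of Slc38a1, Slc38a4 and Slc7a1 (37.5% of all windows), CACGTG in that of Slc7a5 (6.42%) and AGATAA in none of them (11.6% of all windows). None of the 5 motifs searched occurred in the Slc38a5 window printed above. A match is a run of letters and was not measured as a binding site. Sequence outside these windows was not searched, so a gene without a match here may hold one elsewhere.

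Correlations between arrays, taken across probe sets, were at least 0.994. All 8 measured markers of cortical excitatory neurons lay above a level of 4. The arrays were not uniform. The mean of the 5000 dimmest probe sets ran from 3.56 to 3.57 in Stress arrays, and was 3.54 and 3.55 in Control 5 and Control 6 but 3.59 to 3.61 in Control 1 to 4, so the differences of the transporter genes, and of other named genes where the value moved most, are also given for the 6 stressed rats against Control 5 and Control 6 only. Choroid plexus markers, centred per gene, averaged 3.23 on the log2 scale in Control 5, while no other array exceeded −0.11. Markers of striatal projection neurons ranged from −0.64 to 0.77 in Stress and from −0.62 to 1.00 in Control. Oligodendrocyte markers had higher means in stressed rats for 10 of 10 genes (mean difference 0.17, 0 past the threshold). They ranged from −0.052 to 0.22 in Stress and from −0.34 to 0.25 in Control. Control 1 to 3 lay below every stressed rat, and Control 6 did so narrowly (−0.054 against −0.052 in Stress 6). Meningeal fibroblast markers ranged from −0.54 to 0.46 in Stress and from −0.22 to 0.38 in Control. The part of these cell types in the values below was not tested.

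The comparison of stressed with control rats asked which transporter mRNAs differed 2 h after the start of acute stress. None of the 10 genes passed the threshold, a limma adjusted p of at most 0.05 over all probe sets, which 0.0435% of the probe sets tested did. Slc38a5 was lower in all 6 stressed rats than in any control. Slc38a9 had a slightly higher mean, and for the other 8 genes the 95% interval of the difference included 0. At an unadjusted p under 0.05 there were 2 of the 10 genes, Slc38a5 and Slc38a9, against 6.35% of all probe sets. By direction these were 1 lower gene (2.92% of all probe sets) and 1 higher gene (3.43%).

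**Figure D1:**
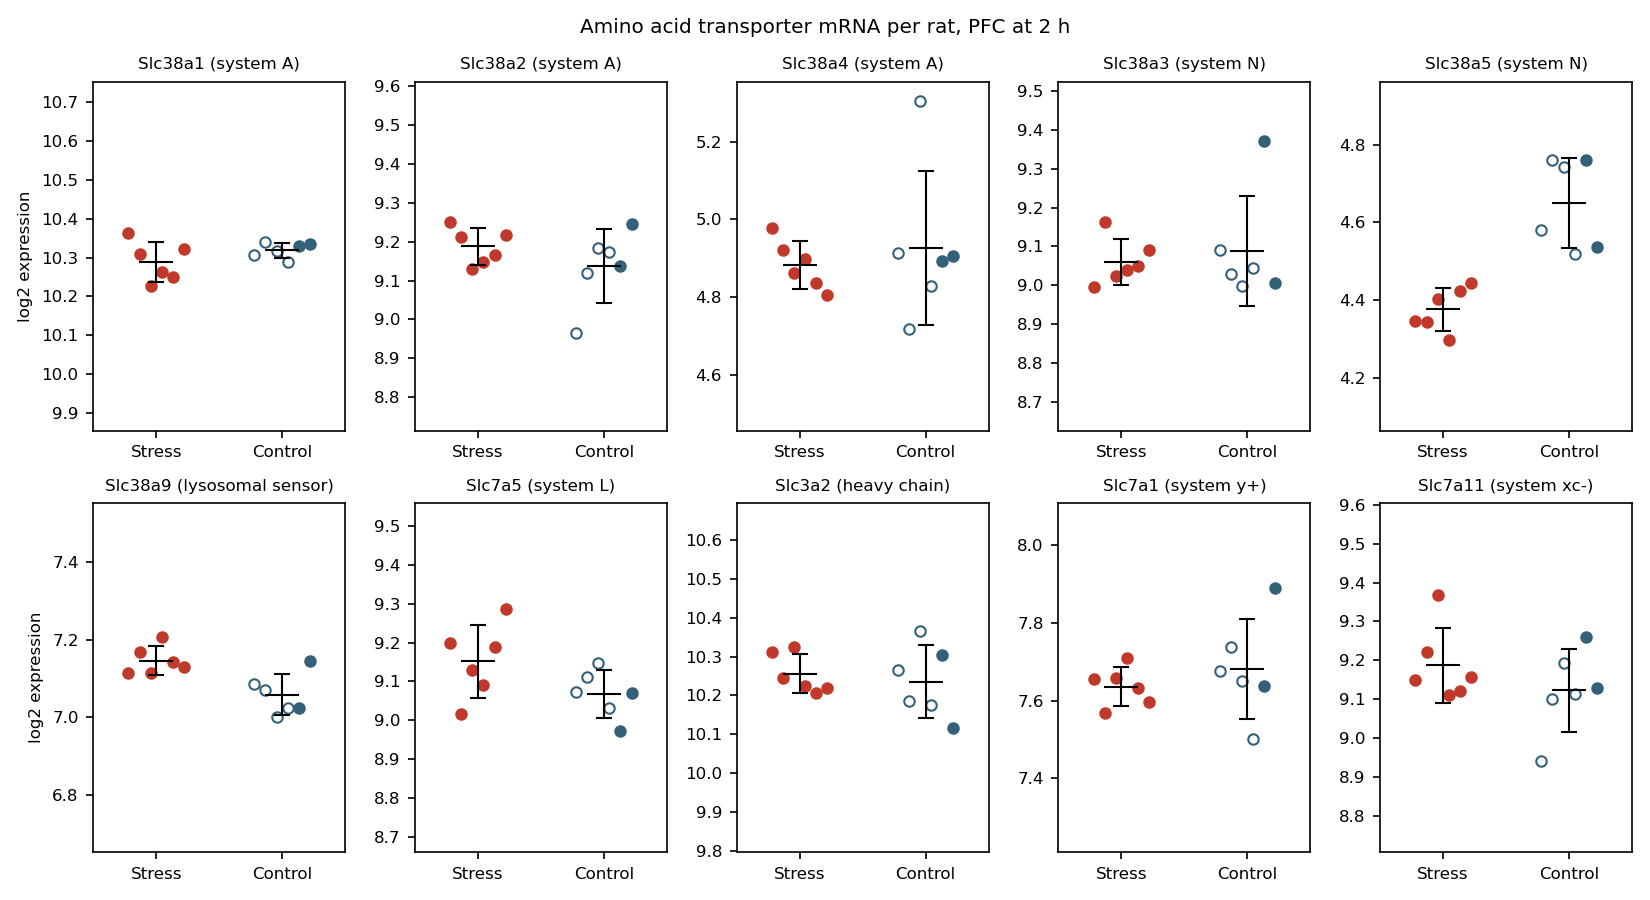
log2 expression (y axis, each panel spanning the same log2 range) of the 10 transporter genes in each rat, Stress left and Control right, with mean ± SD. Open points are Control 1 to 4, which had the higher mean of dim probe sets. Only for Slc38a5 do the groups lie apart, with every stressed rat at or below 4.44 and every control at or above 4.52.

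Slc38a5 encodes SNAT5, a system N carrier of glutamine, asparagine, histidine and serine, found in astrocytes and, in rodents, in brain capillary endothelium. Its log2 expression in stressed rats was 4.30 at the lowest, 4.37 at the median and 4.44 at the highest, against 4.52, 4.66 and 4.76 in controls. The groups were separated by a gap of 0.076. Control 2, Control 3 and Control 5 were the high arrays, and Stress 4 was the lowest. All Stress arrays lay below all Control arrays for 0.131% of the probe sets tested. The means were 4.38 ± 0.0559 in stressed and 4.65 ± 0.117 in control rats (SD, n = 6 each), a log2 difference of −0.27 (SE 0.0510, 95% interval −0.38 to −0.16), or 0.827 of the control level. By unadjusted p (9.95e-05, limma) it ranked 13 among 16085 probe sets, and the adjusted p was 0.123. The size of the difference exceeded that of 99.0% of the probe sets tested. With Control 5 and Control 6 as the only controls the difference was −0.27 (limma adjusted p = 0.519). These 2 controls were unlike, at 4.76 in Control 5, the array with high choroid plexus markers, and 4.54 in Control 6. The probe set was dim, not far above the level of 4 used as a filter.

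Lower means in stressed rats were also seen for most markers of endothelial cells and for those of red blood cells. Of 17 endothelial markers 15 were on the array under 1 symbol, all above a level of 4. The stressed mean was below the control mean for 11 of them, and 0 passed the threshold. Their summed linear signal was 3393 to 3639 in stressed rats and 3453 to 3739 in controls. Centred and averaged per array, they lay between −0.11 and −0.0032 in stressed rats and between −0.017 and 0.11 in controls, a mean difference of −0.091 on the log2 scale (−0.16 against Control 5 and Control 6). Only Control 3 lay among the stressed rats, below Stress 2 and Stress 3. Control 4 lay just above the highest stressed rat (−0.0015 against −0.0032 in Stress 3). Red blood cell markers were lower for 5 of the 5 measured genes of 8 listed, with 0 past the threshold, and their centred mean ran from −0.86 to 0.075 in stressed rats and from −0.58 to 0.95 in controls, a difference of −0.68. The summed signal of these 5 genes was 1192 to 2599 in stressed rats and 1491 to 4624 in controls. The order of the arrays in these lists was in part the same as for Slc38a5 and in part not. Stress 4 had the lowest endothelial mean and the lowest Slc38a5 value of all rats. Control 5 had the highest endothelial mean, with Slc38a5 at 4.76, and Control 3 the highest red blood cell mean, with Slc38a5 at 4.74. Other arrays differed. Control 2 had the lowest red blood cell mean among controls and the highest Slc38a5 value, and Control 3 had the lowest endothelial mean among controls with Slc38a5 at 4.74. Mural cell markers, the other vessel list, had a lower mean for 2 of 6 genes (median difference 0.020). Astrocyte markers differed by 0.00062, and 6 of 12 had a lower mean. Lower means were not particular to vessels and blood. In stressed rats 8 of 8 choroid plexus genes were also lower (mean difference −0.65, with Control 5 far above the other arrays). So were 8 of 8 striatal projection neuron genes (mean difference −0.49). The part of these cell types in the Slc38a5 difference was not tested.

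**Figure D2:**
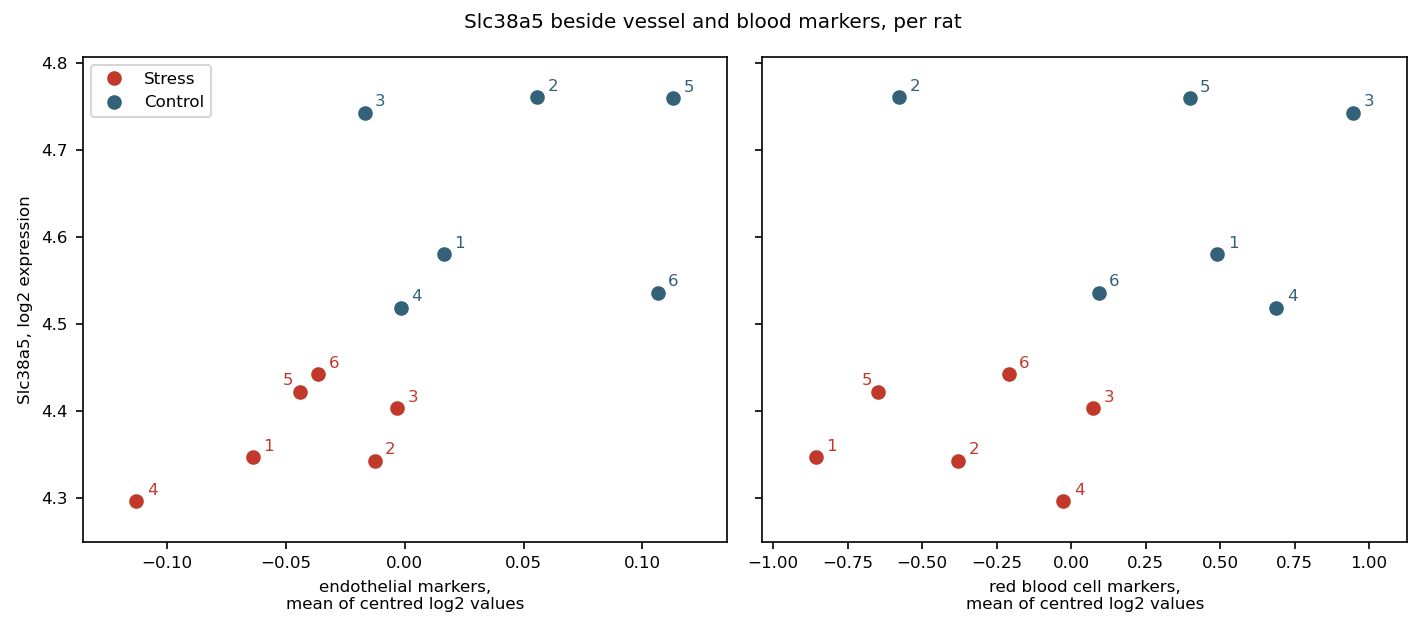
Slc38a5 log2 expression (y axis) against the mean of centred log2 values of endothelial markers (left, x axis) and red blood cell markers (right, x axis), 1 point per rat, with the rat's number beside it. Stressed rats are low on the y axis throughout, while the groups overlap widely for red blood cell markers and, for endothelial markers, only through Control 3, which lies among the stressed rats.

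Slc38a3 (SNAT3), the other system N carrier and a main glutamine exporter of astrocytes, had no such difference. It stood at 8.99, 9.05 and 9.16 in stressed rats and at 9.00, 9.04 and 9.37 in controls (lowest, median and highest). The groups overlapped almost fully, and 1 control, Control 5, lay far above the other 11 rats. The log2 difference was −0.029 (SE 0.0585, 95% interval −0.15 to 0.097, limma adjusted p = 0.966). Without Control 5, the array with high choroid plexus markers, it was 0.027, and with Control 5 and Control 6 as the only controls it was −0.13. The difference between the system N genes themselves was not tested.

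Among system A carriers, Slc38a1 (SNAT1), which supplies glutamine to neurons including GABAergic ones, was the steadiest. Its values were 10.23, 10.29 and 10.36 in stressed rats, against 10.29, 10.32 and 10.34 in controls. The controls lay within a narrow band, and 3 stressed rats lay below it and 1 above it. The difference was −0.031 (SE 0.0309, 95% interval −0.097 to 0.036, limma adjusted p = 0.922). Its pooled SD of 0.0387 was lower than that of all but 2.90% of the probe sets tested. Slc38a2 (SNAT2), the system A carrier that cells raise on amino acid shortage, stood at 9.13, 9.19 and 9.25 in stressed rats and at 8.96, 9.16 and 9.25 in controls. Control 1 was the low array and the remaining rats of both groups covered the same range. The difference was 0.050 (SE 0.0442, 95% interval −0.045 to 0.15, limma adjusted p = 0.899). It was 0.015 without Control 1, and −0.0045 with Control 5 and Control 6 as the only controls. Slc38a4 (SNAT4), a carrier known mainly from liver, was dim in this tissue, at 4.81, 4.88 and 4.98 in stressed rats and 4.72, 4.90 and 5.30 in controls. Control 3 stood above every other rat. The difference was −0.043 (SE 0.0761, adjusted p = 0.959 by limma), and 0.032 without Control 3.

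Slc38a9, the lysosomal member that senses arginine and signals to the growth-regulating kinase complex mTORC1, was higher in stressed rats by an unadjusted p only. Its values were 7.11, 7.14 and 7.21 in stressed rats and 7.00, 7.05 and 7.15 in controls. All 6 stressed rats lay above the control median, while Control 6, the highest control, lay above 4 of them. The means were 7.15 ± 0.0365 in stressed and 7.06 ± 0.0529 in control rats (SD, n = 6 each). The difference was 0.088 (SE 0.0330, 95% interval 0.017 to 0.16, 1.06-fold), with an unadjusted p of 0.0189 and an adjusted p of 0.680 by limma. With Control 5 and Control 6 as the only controls it was 0.061, with an unadjusted p of 0.230 and an adjusted p of 0.850 by limma, which left Slc38a5 as the 1 gene of the 10 with an unadjusted p under 0.05. It was between 0.076 and 0.11 without each array in turn.

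System L is a pair, in which Slc7a5 (LAT1) is the transporting chain and Slc3a2 (CD98 heavy chain, also called 4F2hc) carries it to the membrane. Slc7a5 stood at 9.02, 9.16 and 9.29 in stressed rats, against 8.97, 9.07 and 9.15 in controls. Of the stressed rats 3 lay above every control, and 5 above the control median. The difference was 0.084 (SE 0.0460, 95% interval −0.015 to 0.18, limma adjusted p = 0.819), and 0.13 with Control 5 and Control 6 as the only controls (limma adjusted p = 0.790). Slc3a2 stood at 10.21, 10.24 and 10.32 in stressed rats and at 10.12, 10.23 and 10.37 in controls. All its stressed rats lay inside the control range. Its difference was 0.020 (SE 0.0440, 95% interval −0.075 to 0.11, limma adjusted p = 0.969).

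Slc3a2 also serves as the heavy chain of xCT, the cystine and glutamate exchanger encoded by Slc7a11. Slc7a11 stood at 9.11, 9.15 and 9.37 in stressed rats and at 8.94, 9.12 and 9.26 in controls. Stress 3 was the highest array and Control 1 the lowest, with the others interleaved. The difference was 0.065 (SE 0.0555, 95% interval −0.054 to 0.18, limma adjusted p = 0.897), and −0.0065 with Control 5 and Control 6 as the only controls. Slc7a1 (CAT1), the arginine and lysine carrier, stood at 7.57, 7.64 and 7.71 in stressed rats, against 7.50, 7.66 and 7.89 in controls. Controls were spread on both sides of the stressed rats, with Control 6 highest and Control 4 lowest. The difference was −0.046 (SE 0.0536, 95% interval −0.16 to 0.069, limma adjusted p = 0.937), −0.0044 without Control 6, and −0.13 with Control 5 and Control 6 as the only controls.

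**Figure D3:**
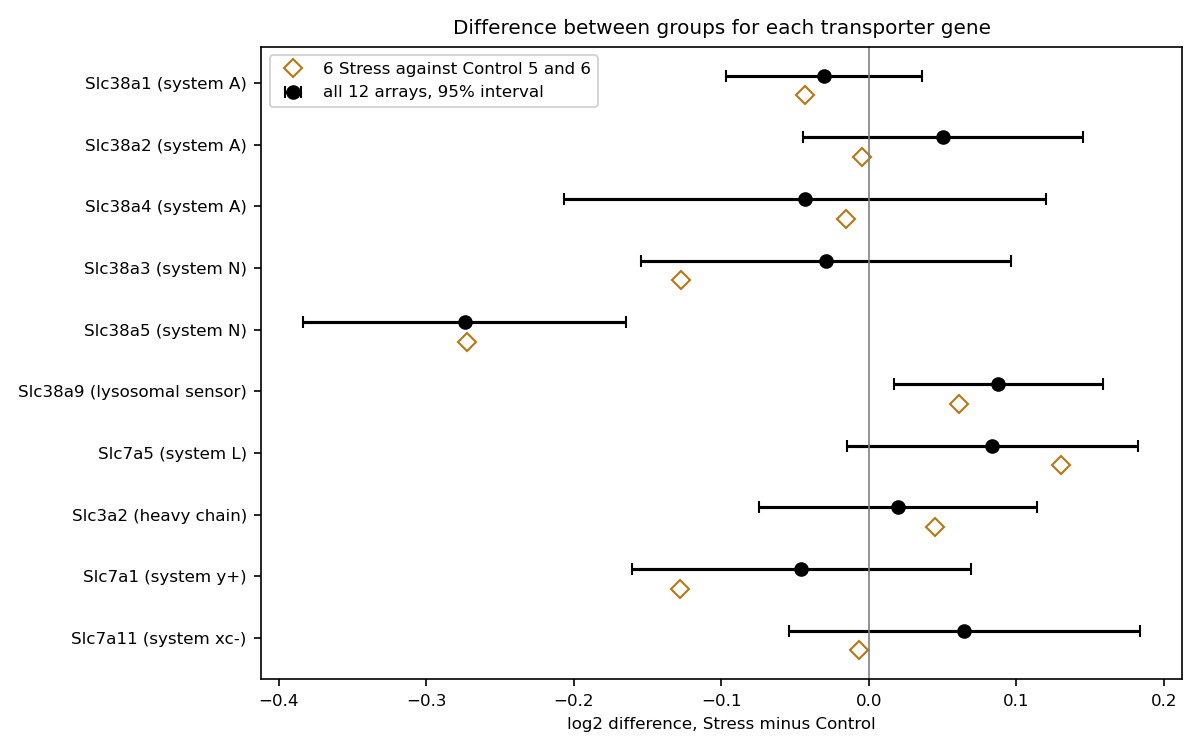
log2 difference, Stress minus Control (x axis), of each transporter gene. Circles with bars are the estimates over all 12 arrays with 95% intervals and diamonds are the differences of the 6 stressed rats from Control 5 and Control 6. Intervals of Slc38a5 (−0.38 to −0.16) and Slc38a9 (0.017 to 0.16) leave out 0, and those of the other genes include it.

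Across the 10 genes, 5 had a higher and 5 a lower mean in stressed rats, and the median difference was −0.0046, against 0.0039 over all probe sets tested. Apart from Slc38a5, the difference of widest size was the 0.088 of Slc38a9. System N held the lowest difference (Slc38a5) and one near 0 (Slc38a3), and system A held differences of both signs. For both chains of system L the mean was higher in stressed rats, although Slc3a2 was at −0.0041 without Control 6. For 8 of the 10 genes the SD was smaller among stressed rats than among controls, as it was for 69.4% of all probe sets. The exceptions were Slc38a1 and Slc7a5.

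Other transporter families and pathways that use these carriers were described by lists, written by hand and, like the 10 genes, with earlier results of these data known. None of the listed genes passed the threshold. Of 5 other SLC38 genes 1 had a higher and 4 a lower mean in stressed rats, with a median difference of −0.032, and Slc38a10 was at 0.095 (SE 0.0624) and Slc38a11 at −0.074 (SE 0.0729). Of 9 other SLC7 and SLC3 genes 7 were higher and 2 lower (median 0.022), among them the lysosomal Slc7a14 at −0.069 and Slc3a1, the heavy chain of the kidney cystine carrier, at 0.035. Other carriers of neutral amino acids also had 7 of 9 genes higher (median 0.013), with the taurine transporter Slc6a6 at −0.072 and Slc36a1, a lysosomal proton-coupled carrier, at 0.054. The share of genes with a higher mean was 53.0% over all 14847 genes tested. In these 3 lists no gene had an unadjusted p under 0.05 over all 12 arrays. With Control 5 and Control 6 as the only controls, Slc38a11 was at −0.21 (limma, unadjusted p of 0.0483), Slc36a1 at 0.12, Slc6a6 at −0.11 and Slc7a14 at −0.029. The Slc38a11 probe set was at the floor of the filter, with a mean of 4.14 and some rats below 4. That of Slc3a1 was also dim, with a mean of 4.41.

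Lysosomal amino acid sensing is the pathway that Slc38a9 feeds. Of its 23 measured genes 3 had an unadjusted p under 0.05, all with a higher mean in stressed rats, and the median was 0.0047. The background was 6.35% of all probe sets, and 3.43% with a higher mean. The 3 genes were Fnip2, Sesn1 and Lamtor5, the last named only because it completes this count and after its value was seen. The difference of Lamtor5, over all arrays or against Control 5 and Control 6 only, is not given here. Fnip2, a partner of folliculin, stood between 6.62 and 6.77 in stressed rats and between 6.44 and 6.59 in controls. The difference was 0.18 (SE 0.0354, limma adjusted p = 0.137). With Control 5 and Control 6 as the only controls it was 0.15, with an unadjusted p of 0.0174 by limma. Sesn1, a sestrin that restrains mTORC1, was at 0.19 (SE 0.0530, limma adjusted p = 0.423). With Control 5 and Control 6 as the only controls Sesn1 was at 0.11, with an unadjusted p of 0.139 by limma.

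Genes of the amino acid response around ATF4, which raises Slc38a2, Slc7a5, Slc7a11 and Slc3a2 in starved cells, had 25 of 33 measured members higher, with a median of 0.035. Over all genes tested, 53.0% had a higher mean. Of the 33 genes 2 had an unadjusted p under 0.05, near the share over all probe sets (6.35%). These were Gpt2, a mitochondrial alanine transaminase, at 0.19 (SE 0.0504, limma adjusted p = 0.388) and Eif4ebp1, an inhibitor of translation initiation, at 0.12 (SE 0.0521, limma adjusted p = 0.769). With Control 5 and Control 6 as the only controls Gpt2 was at 0.16 (limma, unadjusted p of 0.0575) and Eif4ebp1 at 0.18 (limma, unadjusted p of 0.0103). Genes of NRF2 and glutathione, for which Slc7a11 supplies cystine, had 8 of 13 members higher (median 0.0095). Srxn1, a sulfiredoxin, was at 0.12 (SE 0.0368, limma adjusted p = 0.581) and Hmox1, a haem oxygenase, at 0.056. With Control 5 and Control 6 as the only controls Srxn1 was at 0.083 (limma, unadjusted p of 0.126) and Hmox1 at 0.022. The Hmox1 probe set was dim, with a mean of 4.35. Genes of the glutamine and glutamate cycle had 7 of 10 members lower (median −0.025), and none had an unadjusted p under 0.05. Its genes of smallest p were Gad1, a glutamate decarboxylase that makes GABA, at −0.11 (SE 0.0691) and Slc32a1, the vesicular GABA transporter, at −0.22 (SE 0.162). Without Control 5 these were −0.065 for Gad1 and −0.097 for Slc32a1, and with Control 5 and Control 6 as the only controls −0.15 for Gad1 and −0.34 for Slc32a1. Markers of striatal projection neurons, which are GABAergic, also had lower means in stressed rats (8 of 8 genes, mean difference −0.49, 0 past the threshold), and their part in these values was not tested.

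**Figure D4:**
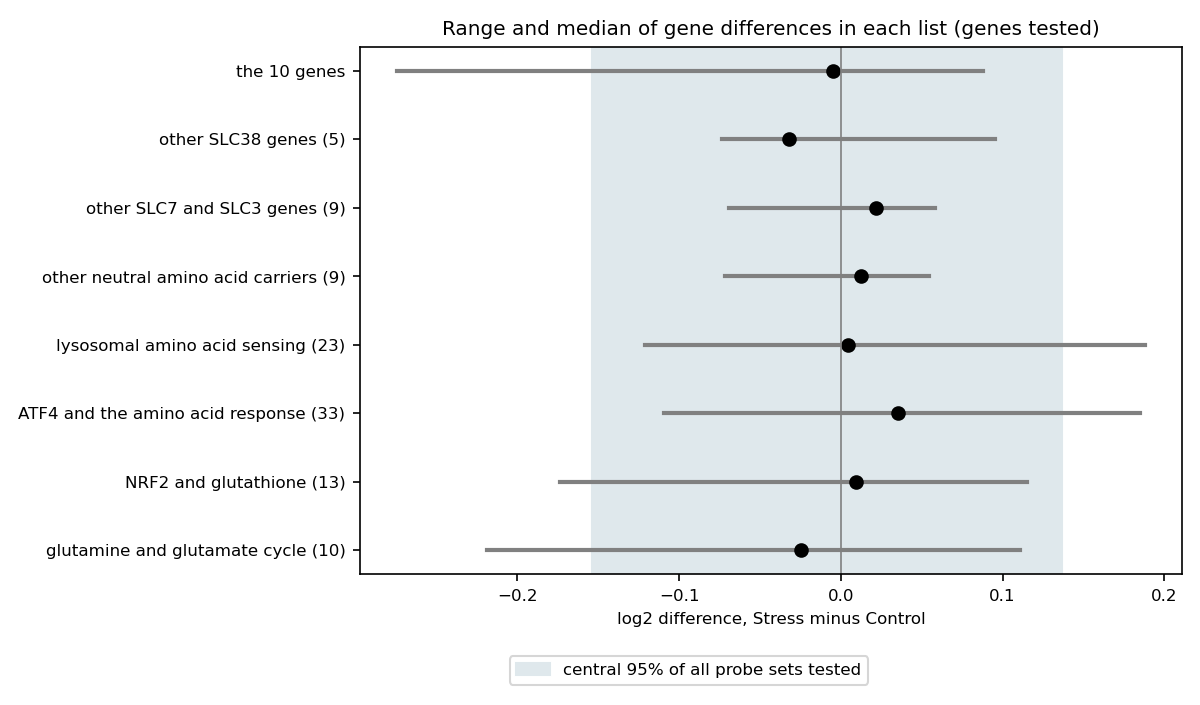
log2 difference, Stress minus Control (x axis), over the genes of each list, with the number of genes tested in brackets. Lines run from the lowest to the highest gene, points are medians, and the band holds the central 95% of all probe sets tested (−0.15 to 0.14). Medians lie between −0.032 and 0.035, and the line of the 10 transporter genes reaches furthest to the left through Slc38a5.

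For the 2 genes with an unadjusted p under 0.05, the genes of most similar pattern were sought by Pearson correlation over the 12 arrays among all genes tested. They are a description, since the highest of many values were taken. For Slc38a5 these were Slc16a4 of the monocarboxylate transporter family (r = 0.921), Myh7b, a myosin heavy chain (r = 0.889), and Cox8b, a subunit of cytochrome c oxidase (r = 0.873). Part of this likeness was the group difference, and after each group was centred on its own mean the values were 0.666, 0.594 and 0.737. Each of these genes had a lower mean in stressed rats, and Slc16a4 was itself past the threshold (difference −0.29, limma adjusted p = 0.0291). For Slc38a9 they were Fam53b (r = 0.888), the heat shock protein gene Hsph1 (r = 0.879) and the splicing factor gene Cdc40 (r = 0.878). Within groups these were 0.894, 0.812 and 0.719.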

How the data were processed

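Expression was measured in the PFC of 12 rats, 1 array each, and groups were taken from the sample labels. The authors deposited log2 values, 1 per probe set and array, computed by RMA from Affymetrix Rat Gene 1.0 ST arrays. The submitters' processing notes name oligo (version 1.58.0). RMA subtracts background, gives every array the same intensity distribution and summarises probes, so a change shared by most genes is not seen and dim differences are understated. The table held 29214 probe sets, of which 18644 had 1 symbol in the platform annotation, 962 had several and 9608 were not listed there. Symbols were updated through the gene identifier for 99.0% with a RefSeq table (GRCr8). No coordinates of probe sets were used.

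Probe sets with a mean above 4 and 1 symbol entered a linear model with no term besides group (lmFit, then eBayes, limma 3.58.1 under R 4.3.3). Tests were two-sided, p-values were adjusted over all these probe sets (Benjamini-Hochberg), and the threshold was 0.05. The test, the level and the adjustment follow the study's methods, which annotated probe sets with another package. The application of the level to the mean over arrays and the restriction to probe sets with 1 symbol were choices made here. The code was tested on simulated data. Differences are Stress minus Control, SE is that of the moderated fit, and intervals are 95%. Each listed gene was represented by its probe set of highest mean. The members and lists were chosen with earlier results of these data known. All 10 members were to be named, with the 2 genes of smallest p in each list and the 3 most similar genes of each member with an unadjusted p of at most 0.05. Alternatives were other filters, scaling, variance models, array weights, blocks, array sets and leaving out each array. Arrays have no sequencing depth. Precision is set by their number.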

Additional observations from a re-analysis of the deposited data

Results flagged for a closer look

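In 48 groups of 6 arrays, covering the 10 transporter genes and 14 other genes given by name from the lists (Lamtor5 was not among them), 3 had an array far from the rest, where the gap to the next array exceeded 0.625 of the group's range. Chance marks about 1 in 20 such groups. For Slc38a3 it was Control 5, at 9.37 while the other controls lay between 9.00 and 9.09. Control 5 was also the array with the highest choroid plexus marker mean (3.23) and the highest astrocyte marker mean (0.10), and their part in the value was not tested. For Slc38a4 it was Control 3, at 5.30 against 4.72 to 4.91 in the other controls, and Control 3 also had the highest red blood cell marker mean (0.95), whose part was not tested. For Slc3a1 it was Stress 2, at 4.35 against 4.42 to 4.46 in the other stressed rats.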

How the results depend on the processing

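Slc38a5 stayed lower in stressed rats under each of the 23 alternatives that could be run for it, with differences from −0.30 to −0.25 and adjusted p between 0.0768 and 0.667 (limma), so it passed the threshold under none of them. As every stressed rat lay below every control, leaving out or weighting arrays could not turn this sign. Alternatives that changed only the filter, the variance model or the replicate block gave the same difference as the main setting, so they are not separate checks of direction. With a mean above 5 as the filter, Slc38a5 and Slc38a4 could not be tested. None of the 10 genes passed under any alternative. Signs turned for Slc38a2, Slc38a3, Slc38a4, Slc7a11 and Slc3a2. Their differences in the main setting ran from −0.043 (Slc38a4) to 0.065 (Slc7a11), with intervals that included 0. The sign of Slc38a1, at −0.031, did not turn. With the 2 array sets divided by the mean of dim probe sets as a term, or within the set of both groups, Slc38a2 was at −0.0045 and Slc7a11 at −0.0065. This division was chosen after seeing the data, since the linkage planned for it set Control 1 apart alone. Without single arrays Slc38a3 ran from −0.049 to 0.027 (without Control 5), Slc38a4 from −0.085 to 0.032 (without Control 3) and Slc3a2 from −0.0041 (without Control 6) to 0.046. Over all probe sets, 7 passed the threshold in the main setting, and 1 with the array set as a term or within that set. Without single arrays 4 to 8 passed, with 4 without Stress 1, Stress 2, Stress 3, Control 4 or Control 6. The values showed no clear pairing of rats by the replicate numbers in the labels, which cannot tell whether same-numbered rats were handled together. Correlations of deviations between same-numbered rats ran from −0.13 to 0.30, and 2 of 6 stressed rats matched their own number best. The replicate block gave 6 genes past the threshold and the same differences. Each member had 1 probe set, so averaging probe sets gave nothing new. Limits are the 6 rats per group, the dim Slc38a5 and Slc38a4 probe sets, and the 2 controls that share an array set with the stressed rats.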
